A study of Mus musculus with 147 samples.

Results

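The genes described here encode the subunits of cAMP-dependent protein kinase (PKA), 1 of its inhibitor peptides and 3 of the proteins that anchor it in the cell. They were chosen by symbol and are 10 of the 35438 genes counted in single YFP-positive cells of the mouse kidney cortex: the regulatory subunits *Prkar1a*, *Prkar1b*, *Prkar2a* and *Prkar2b*, the catalytic subunits *Prkaca* and *Prkacb*, the inhibitor *Pkia*, and the anchoring proteins *Akap1*, *Akap12* and *Akap13*. All 10 had at least 100 counts over all wells.

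PKA is held inactive as a complex of regulatory and catalytic subunits. When cAMP binds the regulatory subunits the catalytic subunits are freed and phosphorylate their targets, among them the transcription factor CREB, which binds the cAMP response element of promoters. In renin cells of the juxtaglomerular apparatus, cAMP signalling is the main stimulus of renin gene expression, and the anchoring proteins decide where in a cell the kinase stands.

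WT renin cells came from Ren1c+/+ Ren1c-YFP mice and Renin null cells from Ren1c-/- Ren1c-YFP mice, all adult and on the C57BL/6 background. In both, YFP was driven by the regulatory sequence upstream of Ren1c, so that a cell was picked for the activity of that sequence and not for renin itself. Mice with the deleted allele had saline injections in the first days of life. Cells were held in single wells of a Fluidigm C1 chip and their RNA was turned into cDNA with SMART-Seq v4, which has no molecular identifiers. There were 51 WT wells, from 4 mice and 1 capture, and 96 Renin null wells, from 12 mice and 4 captures, sequenced as libraries YFP1 and YFP2 of 48 wells each. The labels tie no well to a mouse, so a genotype counts as 1 sample, the genotypes are compared without a test, and the effects of genotype, capture and library cannot be told apart. Wells are named below by genotype and a running number.

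Depth and RNA quality differed between the genotypes. WT wells held 26401 to 17124854 counts (median 1525972) and Renin null wells 3628 to 14505243 (median 4107950). In the median WT well 60.4% of counts came from mitochondrially encoded genes, against 12.4% in the median Renin null well. Wells with a depth of 100000 counts or more, 1000 genes or more and a mitochondrial share up to 25% are called intact below, and there were 15 such WT wells and 57 such Renin null wells. Nearly identical profiles were seen in 4 pairs of Renin null wells (Pearson r of 0.964 to 0.987), and 3 of them joined a YFP1 well to a YFP2 well. The cell labels were checked on markers. *Ren1* stood at 96023 counts per 1000000 counts (CPM) in the WT sum and 0.135 CPM in the Renin null sum. All 9 genes of the renin and smooth muscle list (*Ren1*, *Akr1b7*, *Acta2*, *Tagln*, *Myh11*, *Cnn1*, *Rgs5*, *Notch3*, *Pdgfrb*) were found in both genotypes, and their summed level was under 1000 CPM in 1 WT well and 25 Renin null wells, of which 8 were intact. WT wells could pass that limit on *Ren1* alone. In those 25 wells the renin cell label was not borne out by these genes.

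Of the 10 genes, 8 had a promoter sequence in the RefSeq table used here (GRCm38.p6, 250 bases before to 50 after an annotated start), in 1 to 6 windows a gene. *Akap12* and *Pkia* had none. The windows were searched on both strands for the cAMP response element TGACGTCA and for the shorter motif TGACG, which the element contains on each strand. TGACGTCA was found in *Prkar1a* alone among these 8 genes, in 2 overlapping windows, against 2.03% of the 27025 genes of the table. TGACG was found in *Prkar1a*, *Prkar1b*, *Prkar2a*, *Prkaca* and *Prkacb*, 5 of the 8 genes, against 23.0% of all genes. A gene with more windows has more chances of a match. By window, TGACG was found in 3 of 6 for *Prkar1a*, 1 of 5 for *Prkar1b* and 1 of 1 for *Prkar2a*. It was found in 1 of 2 for *Prkaca* and 1 of 3 for *Prkacb*. The 3 windows of *Akap1*, 2 of *Prkar2b* and 1 of *Akap13* had none. Of all 32851 windows, 20.8% held TGACG and 1.79% TGACGTCA. A window with a motif is shown for the most widely found regulatory subunit and for each catalytic subunit, with the motifs in capitals, at chr11:109650699-109650998 (plus strand) for *Prkar1a*, chr8:83972728-83973027 (plus strand) for *Prkaca* and chr3:146812897-146813196 (minus strand) for *Prkacb*.
Prkar1a: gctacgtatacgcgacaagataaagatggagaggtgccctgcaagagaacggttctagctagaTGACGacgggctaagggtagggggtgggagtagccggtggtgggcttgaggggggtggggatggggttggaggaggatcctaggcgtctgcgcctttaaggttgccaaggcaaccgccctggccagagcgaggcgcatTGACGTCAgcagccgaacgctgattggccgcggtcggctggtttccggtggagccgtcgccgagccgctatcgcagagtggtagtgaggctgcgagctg
Prkaca: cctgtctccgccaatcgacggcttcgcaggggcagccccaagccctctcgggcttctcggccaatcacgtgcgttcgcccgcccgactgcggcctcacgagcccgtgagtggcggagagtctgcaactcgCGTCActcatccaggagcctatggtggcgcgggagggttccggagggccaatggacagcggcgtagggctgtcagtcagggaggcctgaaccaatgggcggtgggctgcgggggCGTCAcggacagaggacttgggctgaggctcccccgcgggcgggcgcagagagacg
Prkacb: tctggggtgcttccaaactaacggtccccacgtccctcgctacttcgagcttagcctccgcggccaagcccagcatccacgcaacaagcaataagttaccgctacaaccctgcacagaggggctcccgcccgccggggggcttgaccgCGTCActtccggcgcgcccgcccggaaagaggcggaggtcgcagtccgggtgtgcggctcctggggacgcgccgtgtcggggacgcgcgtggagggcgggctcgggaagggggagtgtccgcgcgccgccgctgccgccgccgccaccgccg
In the *Prkar1a* window the element begins 49 bases before the start. The motif TGACG begins 120 and 6 bases before the start in *Prkaca* and 102 bases before it in *Prkacb*, read on the opposite strand in each. A match describes these letters and is not a binding site.

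Over the wells, 2 of the 10 genes were found widely, and the other 8 reached 10 CPM in no more than 9 of 51 WT wells and 21 of 96 Renin null wells. *Prkar1a* had at least 1 count in 41 of 51 WT wells and 85 of 96 Renin null wells, and *Akap13* in 50 and 89. At a limit of 10 CPM, the number of the 10 genes in a well ranged from 0 to 6 (median 1) in WT wells and from 0 to 8 (median 2) in Renin null wells. The plot of single wells shows the medians of the remaining 8 genes at 0 in both genotypes.

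**Figure D1:**
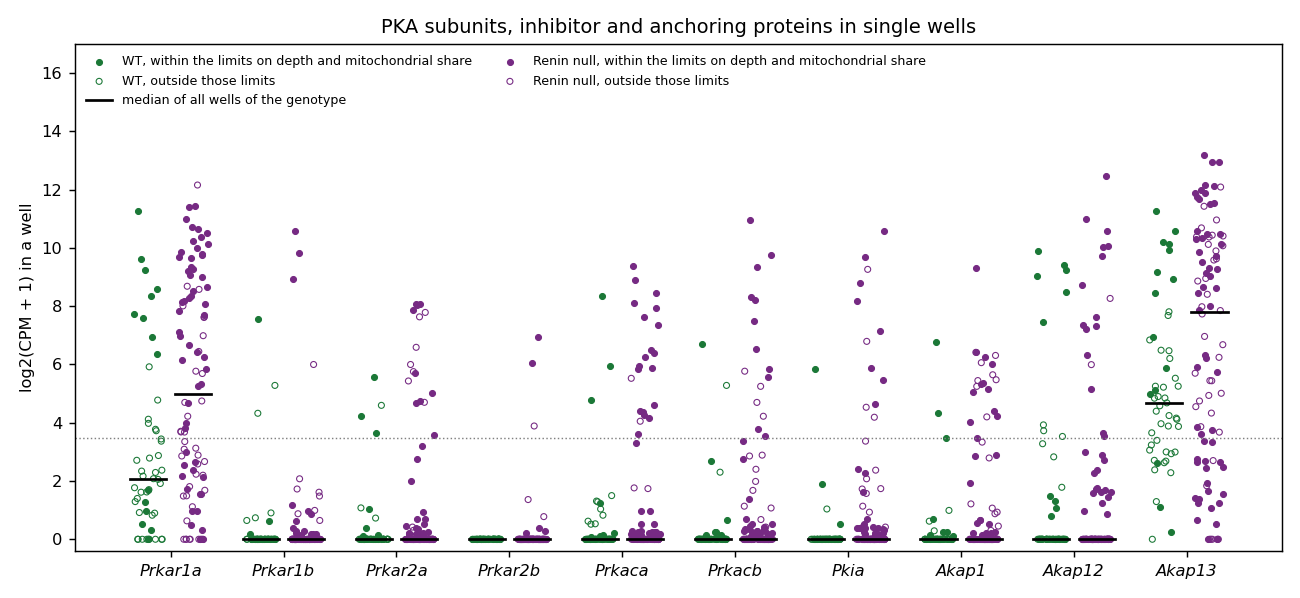
Level of each gene in each well, as log2(CPM + 1), for 51 WT and 96 Renin null wells. Filled points are the 15 WT and 57 Renin null wells within the limits on depth, gene number and mitochondrial share, open points the others, black lines the medians of all wells of a genotype, and the dotted line 10 CPM; only *Prkar1a* and *Akap13* have a median above 0.

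*Prkar1a* (chromosome 11, 109649405 to 109669656, GRCm38) encodes the type I alpha regulatory subunit, the subunit that restrains the kinase in most tissues. It ranged from 0 to 2475 CPM in WT wells, with a median of 3.16 CPM, and from 0 to 4572 CPM in Renin null wells, with a median of 31.5 CPM. It reached 10 CPM in 15 of 51 WT wells (29.4%, exact binomial 95% interval 17.5% to 43.8%) and 57 of 96 Renin null wells (59.4%, 48.9% to 69.3%). The ranges overlapped widely, and the Renin null wells were shifted upward. Over intact wells the shares came closer, at 9 of 15 (60%, 32.3% to 83.7%) and 41 of 57 (71.9%, 58.5% to 83%), with medians of 123 and 205 CPM. In the sums over all wells, the level was 285 CPM (56475 counts) for WT and 527 CPM (210331 counts) for Renin null wells. WT well 3 gave 52.9% of the WT counts, while the Renin null well richest by counts gave 14.7%.

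The level of *Prkar1a* moved with the mitochondrial share of the wells. Wells with at most 25% mitochondrial counts, 17 WT and 60 Renin null, held 99.7% of the WT and 98.0% of the Renin null counts of *Prkar1a*. Its median was 80.7 CPM in those 17 WT wells and 2.96 CPM in the 34 others, against 215.5 CPM and 5.80 CPM in the corresponding 60 and 36 Renin null wells. For each of the 9 genes found in WT wells (all but *Prkar2b*), the wells with at most 25% held at least 94.67% of the WT counts. They held at least 89.06% of the Renin null counts. Of the counts of all genes, these wells held 75.7% and 89.05%. Fewer cells with the transcript and less RNA per cell cannot be told apart where a well holds degraded RNA, and the part of RNA quality in the differences between genotypes was not tested beyond the values for intact wells.

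**Figure D2:**
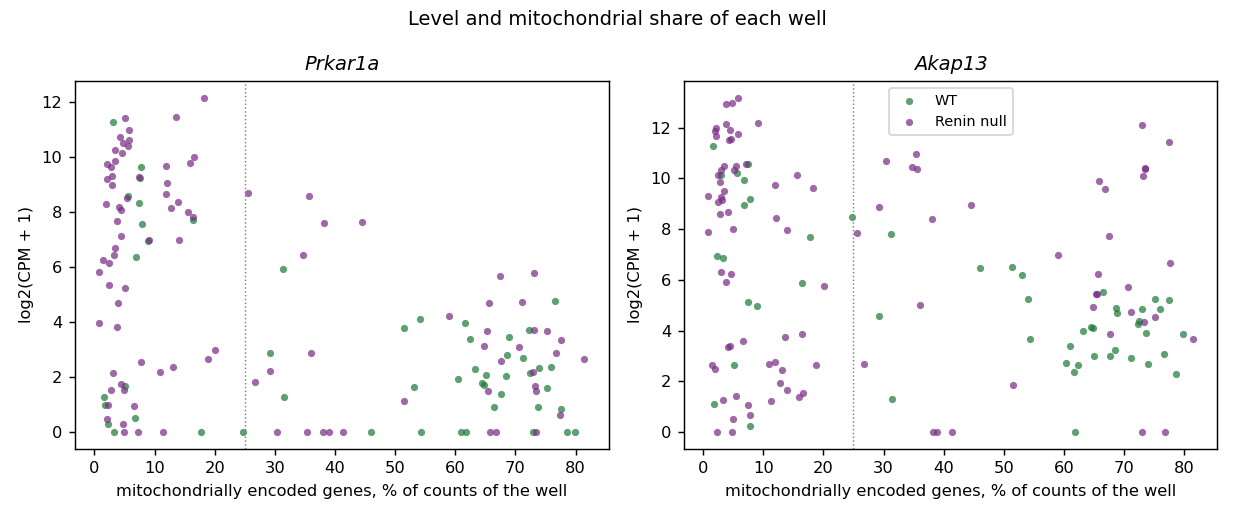
Level of *Prkar1a* (left) and *Akap13* (right) in each well, as log2(CPM + 1), against the share of mitochondrially encoded genes in the counts of the well, with the 25% limit dotted. WT wells (green) crowd at high mitochondrial shares, where the median of *Prkar1a* was 2.96 CPM, while the Renin null wells (purple) also span the low shares.

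*Prkar1b*, the type I beta subunit best known from brain, was nearly a gene of single wells. It was at 0 in the median well of either genotype, reached 10 CPM in 3 of 51 WT wells and 4 of 96 Renin null wells, and its highest level was 187 CPM in WT well 14 and 1512 CPM in Renin null well 1. WT well 14 held 99.3% of the 2259 WT counts. Renin null well 1 held 72.1% of the 30431 Renin null counts, and the nearly identical wells 47 and 95 held 16.9% and 10.8%. A count was seen in 5 of the 15 wells with an index in common with WT well 14 and in 2 of the 35 without, and none of them had more than 6. The corresponding numbers for the richest well were 3 of 14 and 9 of 33 in YFP1 and 3 of 14 and 6 of 33 in YFP2. The transcripts of *Prkar1b* share 8.27% of their 31-base words with Gm15672, a gene of GENCODE M21 that the count tables do not list.

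The type II subunits, which bind most anchoring proteins, were rare. *Prkar2a* had a median of 0 CPM and a highest value of 46.7 CPM in WT wells and 268 CPM in Renin null wells, and reached 10 CPM in 4 of 51 (7.84%, 2.18% to 18.9%) and 16 of 96 (16.7%, 9.84% to 25.7%). In intact wells the order turned, with 3 of 15 (20%, 4.33% to 48.1%) and 9 of 57 (15.8%, 7.48% to 27.9%). Renin null well 59, its richest by counts, held 28.3% of the Renin null counts. That well carried 12660 CPM of podocyte markers and 79.1 CPM of the renin and smooth muscle list. *Prkar2b* had no count in any of the 51 WT wells, where 3 counts would be 0.0152 CPM, and 966 counts in Renin null cells, of which well 51 held 96.9%. Well 51 carried 45.4 CPM of the renin and smooth muscle list, with *Akr1b7* at 0.916 CPM. The 25 Renin null wells under 1000 CPM of that list held 98.9% of the *Prkar2b* counts and 29.2% of those of *Prkar2a*, against 18.5% of all counts and 7.07% of those of *Prkar1a*. The *Prkar2b* of the Renin null sum was therefore measured almost wholly in wells with under 1000 CPM of the renin and smooth muscle genes.

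*Prkaca* and *Prkacb* encode the alpha and beta catalytic subunits, the enzymes proper. *Prkaca* had a median of 0 CPM and a highest value of 322 CPM in WT wells and 665 CPM in Renin null wells, and it reached 10 CPM in 3 of 51 (5.88%, 1.23% to 16.2%) and 21 of 96 (21.9%, 14.1% to 31.5%). WT well 47 held 80.6% of its WT counts, whereas the Renin null well richest by counts held 22.4%. In intact wells these shares were 3 of 15 (20.0%, 4.33% to 48.1%) and 19 of 57 (33.3%, 21.4% to 47.1%). *Prkacb* was found at 10 CPM in 2 of 51 WT wells and 15 of 96 Renin null wells, with highest values of 104 CPM and 1976 CPM. WT well 10, in which 10791 genes had a count, the highest number of any WT well, held 93.9% of the WT counts of *Prkacb*, and Renin null well 75 held 54.6% of the Renin null counts. Beside 179267 CPM of the renin and smooth muscle list, WT well 10 carried 566 CPM of proximal tubule and 146 CPM of collecting duct markers. It held 70.3% of the WT sum of the former and 93.1% of that of the latter, and was also the WT well richest in *Prkar2a*.

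*Pkia* encodes a small peptide that blocks the freed catalytic subunit and takes it out of the nucleus. It was at 0 CPM in the median well, reached 10 CPM in 1 of 51 WT wells and 12 of 96 Renin null wells, and peaked at 56.5 CPM in WT well 44 and 1537 CPM in Renin null well 1. That last well was also the richest in *Prkar1b* and held 58.5% of the Renin null counts of *Pkia*. Of the 12 Renin null wells with *Pkia*, 4 also held a catalytic subunit at 10 CPM, while the WT well did not. The 12 wells were split as 7 in YFP1 and 5 in YFP2, but the level over the library was 188 CPM in YFP1 and 18.3 CPM in YFP2. Its log2 ratio less the median gene was 5.45 with YFP1 alone and 1.75 with YFP2 alone, above the limit in both.

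Among the anchoring proteins *Akap13*, which also acts as an exchange factor for RhoA, was the most widely found of the 10 genes. It ranged from 0 to 2448 CPM in WT wells (median 24.7) and from 0 to 9255 CPM in Renin null wells (median 220.7), and reached 10 CPM in 35 of 51 (68.6%, 54.1% to 80.9%) and 69 of 96 (71.9%, 61.8% to 80.6%). The shares of wells with the gene were thus close, and the levels in the median well were further apart. In intact wells 12 of 15 WT (80%, 51.9% to 95.7%) and 37 of 57 Renin null wells (64.9%, 51.1% to 77.1%) reached 10 CPM, and the order of the medians turned too, with 352 CPM over 15 WT wells and 259 CPM over 57 Renin null wells. The sums stood at 408 and 1367 CPM, and the level in YFP1 alone was 2000 CPM against 839 CPM in YFP2. Its transcripts share 31-base words with 1604 other genes, but these are 0.680% of its words.

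*Akap12*, a large scaffold for PKA and protein kinase C at the plasma membrane, had similar sums in the genotypes, at 181 CPM for WT and 161 CPM for Renin null wells. The libraries differed, with 90.3 CPM in YFP1 and 219 CPM in YFP2, one under and one over the WT level. It reached 10 CPM in 9 of 51 WT wells (17.6%, 8.40% to 30.9%) and 17 of 96 Renin null wells (17.7%, 10.7% to 26.8%), with highest values of 954 and 5634 CPM. In intact wells it was found in 6 of 15 (40.0%, 16.3% to 67.7%) and 15 of 57 (26.3%, 15.5% to 39.7%). *Akap1* places PKA on the outer mitochondrial membrane. It reached 10 CPM in 3 of 51 WT wells and 20 of 96 Renin null wells, with highest values of 107 and 638 CPM, and WT well 43 held 87.4% of its WT counts. In intact wells the shares were nearly equal, at 3 of 15 (20%) and 12 of 57 (21.1%).

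The balance of the subunits was then read within wells. Counts were divided by the median length of the protein-coding transcripts of each gene, so that levels of different genes could be compared. This median is short for *Prkar1b* (795 bases, longest 2637) and *Prkar2a* (871 bases, longest 4965), which raises their shares, and the shares with the longest transcript are given beside it. In the 9 WT wells with at least 100 regulatory subunit counts, *Prkar1a* made up 32.5% to 100% of them per length, with a median of 98.5%, and at least 90% in 6 wells. In the 44 such Renin null wells it made up 0.297% to 100%, with a median of 99.8%, and at least 90% in 32 wells. With the longest transcript these counts of wells were 7 of 9 and 36 of 44. Most of these 9 WT and 44 Renin null wells were therefore *Prkar1a* wells, and the ranges overlapped. Without division by length, *Prkar1a* supplied 94.7% (WT) and 84.1% (Renin null) of the summed regulatory counts. The limit of 100 counts thus favours wells rich in this gene, and the shares do not describe the other wells. At 10 CPM, a regulatory subunit was found in 17 of 51 WT and 63 of 96 Renin null wells, *Prkar1a* in 15 and 57.

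**Figure D3:**
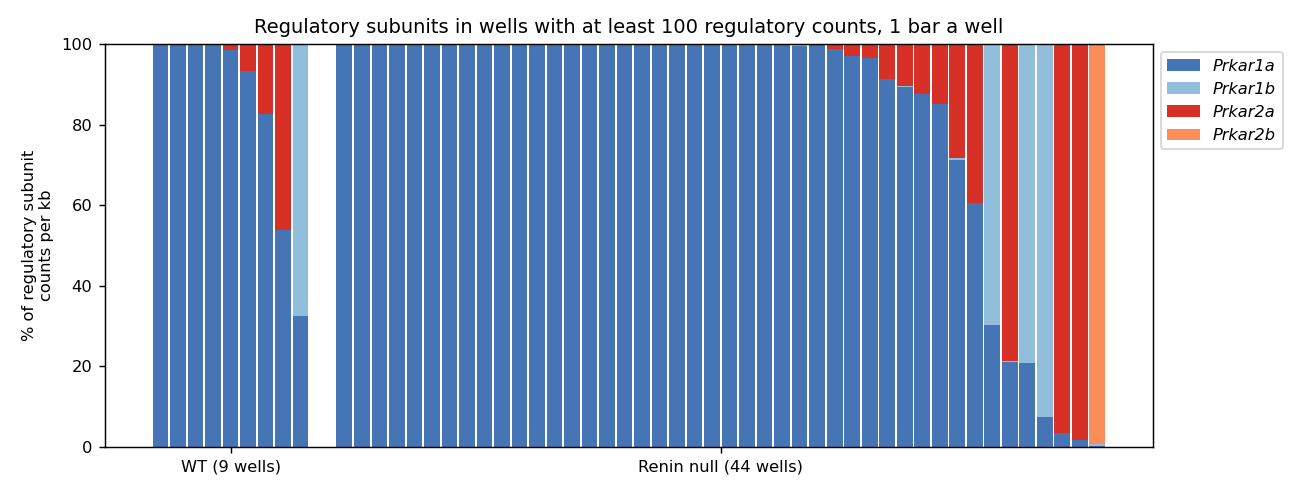
Share of each regulatory subunit in the regulatory counts per kb of a well, for the 9 WT and 44 Renin null wells with at least 100 such counts, 1 bar a well, sorted by the share of *Prkar1a*. In 6 WT and 32 Renin null wells *Prkar1a* holds at least 90%, and 1 WT and 7 Renin null wells fall under 50%.

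In the wells where *Prkar1a* was under 50%, 1 other subunit led. WT well 14 held *Prkar1a* at 32.5% with *Prkar1b* at 67.5%. Among the 7 Renin null wells under 50%, *Prkar1b* led in wells 1, 47 and 95 (92.6%, 79.1% and 69.6%), *Prkar2a* in wells 30, 59 and 87 (96.5%, 98.4% and 78.6%), and *Prkar2b* in well 51 (99.3%). With the longest transcript, no WT well and 5 Renin null wells stayed under 50%. Wells 47 and 95 are a nearly identical pair, well 59 carried podocyte markers, and well 51 was low in the renin and smooth muscle genes, as given above. Proximal tubule markers stood at 2813 and 2294 CPM in wells 47 and 95. They stood at 72.5 to 574 CPM in wells 30, 51, 59 and 87 and at 0.414 CPM in well 1. Well 87 also carried 2284 CPM of podocyte markers.

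In the sums over wells these few wells moved the balance. *Prkar1a* was 81.2% of regulatory subunit transcripts per length in WT and 56.4% in Renin null cells, *Prkar1b* 13.7% and 34.5%, *Prkar2a* 5.10% and 8.79%, and *Prkar2b* 0% and 0.278%. In YFP1 the share of *Prkar1a* was 33.6% and in YFP2 81.9%, so that the difference from WT was seen in 1 library and absent from the other. Without the highest well of each gene the shares were 94.9% in WT and 75.1% in Renin null wells, and with the longest transcript 93.9% and 81.6%. Both type I subunits together held 94.9% and 90.9%. Type I transcripts thus made up most of the regulatory pool in both genotypes.

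Catalytic subunits mostly appeared 1 at a time. Both genes were found in few wells, and how often they would meet by chance was not tested. Of the 27 Renin null wells with at least 100 catalytic counts, 15 held *Prkaca* at 90% or more per length, 9 held *Prkacb* at over 90%, and 3 were mixed. Of the 3 such WT wells, 2 held *Prkaca* at 90% or more and 1 was mixed. Both catalytic subunits reached 10 CPM in 1 WT well (10) and 4 Renin null wells (16, 26, 48 and 96). Wells 48 and 96 are a nearly identical pair and are also 2 of the 3 mixed wells. They carried 2196 and 2173 CPM of proximal tubule markers and 1291 and 1271 CPM of collecting duct markers. WT well 10 carried 566 and 146 CPM of these, and Renin null wells 16 and 26 no more than 0.129 CPM of either. In the sums, *Prkaca* was 88% of catalytic transcripts per length in WT and 48.8% in Renin null cells, and without WT well 10 and the 6 Renin null wells that also had over 9000 genes, 99.1% and 47.9%.

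**Figure D4:**
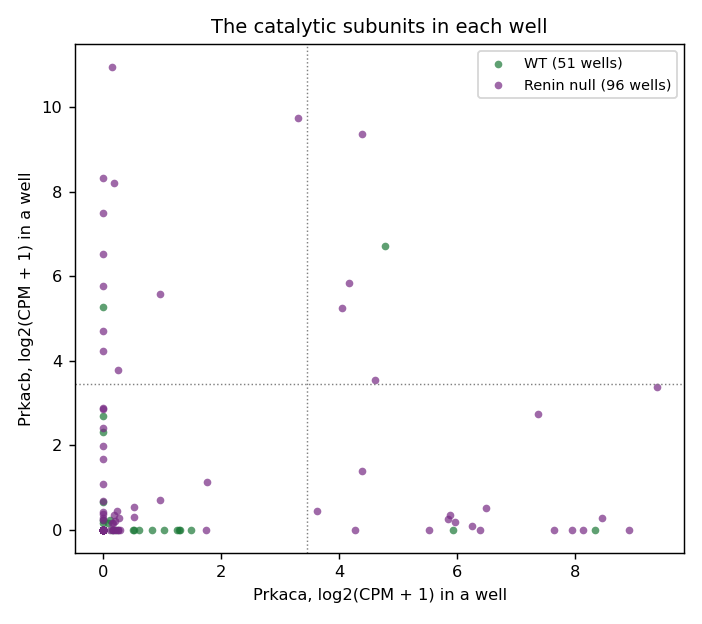
Level of *Prkacb* against *Prkaca* in each of 51 WT (green) and 96 Renin null (purple) wells, as log2(CPM + 1), with 10 CPM dotted on both axes. Most wells that hold a catalytic subunit lie along 1 axis, and 1 WT and 4 Renin null wells lie above 10 CPM on both.

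Regulatory and catalytic transcripts were seldom seen in the same WT well. At 10 CPM, both kinds were found in 3 of 51 WT wells (5.88%, 1.23% to 16.2%) and 29 of 96 Renin null wells (30.2%, 21.3% to 40.4%), a regulatory subunit alone in 14 and 34, a catalytic subunit alone in 1 and 3, and neither in 33 and 30. In intact wells both kinds were found in 2 of 15 (13.3%, 1.66% to 40.5%) and 25 of 57 (43.9%, 30.7% to 57.6%). Of all genes, 76.9% reached 10 CPM in a larger share of Renin null than of WT wells, and 55.5% did in intact wells. Whether finding both kinds differed beyond this background was not tested. Where both kinds had at least 100 counts, the log2 ratio of regulatory to catalytic transcripts per length had a median of 0.84 in 2 WT wells (0.16 and 1.52) and of 1.44 in 22 Renin null wells (-2.41 to 6.28), and it was above 0 in 2 and 16 of them. In the sums, regulatory exceeded catalytic transcripts 7.35-fold in WT and 7.44-fold in Renin null cells. That likeness did not hold in other settings, with 16.6-fold and 7.80-fold without the highest well of each gene and 10.1-fold and 5.70-fold without division by length. Single wells spread over a range far wider than the pooled difference.

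The genotypes were then set against each other gene by gene, as the log2 ratio of the summed CPM, Renin null over WT. Over the 15542 genes with at least 100 counts the median log2 ratio was 1.29, with quartiles of -0.43 and 4.19, so a gene was called higher or lower only if it lay more than 1 log2 unit above or below the median gene. By that limit 39.0% of all genes were higher and 35.2% lower, and of the 10 genes 4 were higher (*Prkar1b*, *Prkar2b*, *Prkacb*, *Pkia*) and 1 was lower (*Akap12*). The count of higher genes lies near its background, and 1 lower gene in 10 lies under the share of all genes. Their median log2 ratio was 1.97, or 0.68 above that of all genes. In intact wells the same 4 and 1 were counted, beside 39.4% and 36.3% of all genes.

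The intervals beside these ratios cover counting error only. The log2 ratio of *Pkia* was 5.15 (95% interval 5.03 to 5.27), of *Prkacb* 3.48 (3.40 to 3.56) and of *Prkar1b* 2.74 (2.68 to 2.80). *Prkar2b*, with no WT count, had a log2 ratio of 7.32 against 3 counts over the WT wells, and the lower end of its interval was 7.02. All 4 rested on few wells, since the 3 richest wells held 84.9%, 82.6%, 99.8% and 99.2% of their Renin null counts, in that order. The WT counts sat in single wells too, with 92.7% of those of *Pkia*, 93.9% of *Prkacb* and 99.3% of *Prkar1b*. Without the highest well of each gene the log2 ratios became 7.64, 6.31 and 8.00, beside 2.08 for the median gene. Few WT counts were then left, with no WT well above 33 counts of *Pkia*, 63 of *Prkacb* and 6 of *Prkar1b*. The *Prkar1b* value also rested on the nearly identical Renin null wells 47 and 95, with 5147 and 3293 counts. These ratios therefore rest on low WT counts and are no firmer than those from all wells. Without well 51, *Prkar2b* stood at 2.33 against the same kind of floor, 0.26 above the median gene, and its call was lost. The log2 ratio of *Akap12* was -0.18 (-0.20 to -0.16), lower than the median gene while close to 0 itself. That call was lost in 5 of 17 alternatives, among them YFP2 alone (-0.74), where *Prkar1b* lost its call and changed sign (-0.59). Less the median gene, the ratios of the others were 0.91 for *Prkar2a*, 0.46 for *Akap13*, -0.37 for *Akap1*, -0.40 for *Prkar1a* and -0.74 for *Prkaca*, all within the limit. Of these genes only *Prkaca* stayed there in every setting. *Prkar1a* passed the limit on mean log2(CPM + 1) (2.10) and *Akap1* in YFP2 alone (-1.14). *Prkar2a* was past the limit in 8 of 17 alternatives, among them YFP1 alone (1.61) and YFP2 alone (1.10), and *Akap13* in 3 of 17, with 1.62 in YFP1 and 0.03 in YFP2. With TMM or DESeq2 size factors the median gene moved to 0.58 and 0.45 and the distances from it did not change.

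**Figure D5:**
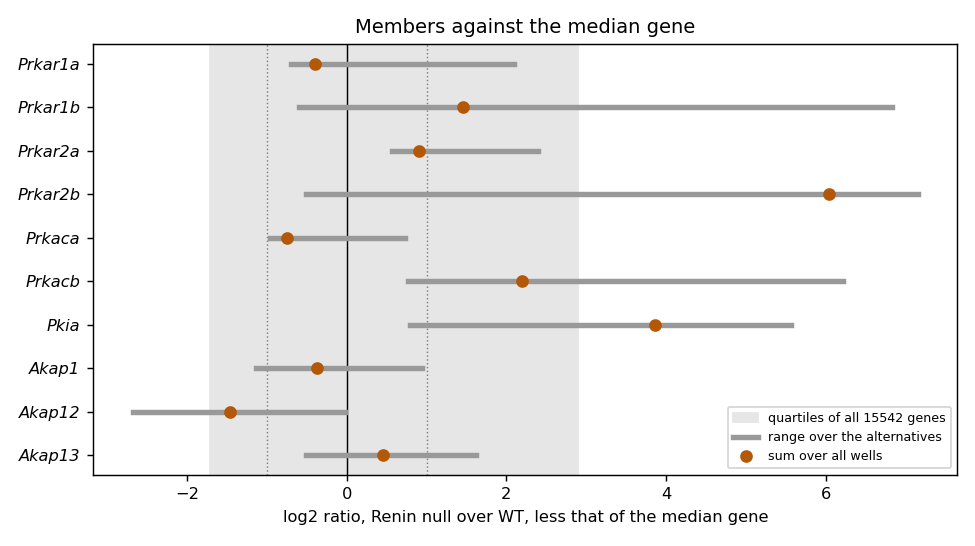
Log2 ratio of summed CPM, Renin null over WT, less that of the median gene, for the 10 genes (points) with the lowest and highest value over the alternative ways of computing it (bars). The grey band spans the quartiles of all 15542 genes and the dotted lines mark 1 log2 unit; *Pkia* and *Prkar2b* lie outside the band, and the bars of 6 genes (*Prkar1a*, *Prkar1b*, *Prkar2b*, *Prkaca*, *Akap1* and *Akap13*) cross 0.

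Detection gave a different order from the sums. At 10 CPM, 9 of the 10 genes were found in a larger share of Renin null than of WT wells (90%), the exception being *Prkar1b*, but so were 76.9% of all genes. In intact wells this fell to 60% of the 10 genes and 55.5% of all genes. *Prkar1b* was thus among the genes called higher by its summed counts while the share of wells with it was 5.88% for WT and 4.17% for Renin null wells.

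The wells with *Akr1b7*, a marker that renin cells keep without renin, were compared as a description within genotypes. Among Renin null wells, *Prkar1a* reached 10 CPM in 43 of 59 wells with at least 100 CPM of *Akr1b7* and in 14 of 37 others. In intact Renin null wells these were 33 of 42 and 8 of 15, and in intact WT wells 6 of 12 and 3 of 3. *Akap1* ran the other way in Renin null wells, in 8 of 59 and 12 of 37, and in 6 of 42 and 6 of 15 intact ones. Of the 20 Renin null wells with *Akap1* at 10 CPM, 10 were among the 25 under 1000 CPM of renin and smooth muscle genes. These differences come from 1 sample a genotype and were not tested.

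Markers of other kidney cells had higher pooled levels in the Renin null sum and are given beside the differences. Proximal tubule genes summed to 49.7 CPM over the WT wells and 735 CPM over the Renin null wells (with *Slc5a2* at 0 in WT), podocyte genes to 86.1 and 559 CPM (most abundant *Synpo*, with *Podxl* at 0 in WT), and endothelial genes to 38.3 and 222 CPM (*Emcn*, with *Cdh5* at 0 in WT). All markers of each of these 3 lists were found in Renin null cells. Fibroblast genes, all 5 found in both genotypes, summed to 9.21 and 807 CPM, loop and distal tubule genes, all 4 found in both, to 0.515 and 109 CPM, and collecting duct genes, all 3 found in both, to 9.67 and 45.5 CPM. Macrophage genes stood at 0.985 and 4.08 CPM, with *Adgre1* and *C1qb* at 0 in both genotypes and *C1qa* and *Lyz2* at 0 in WT. Some of these sums were set by 1 well, since a single Renin null well held 71.1% of the endothelial, 58.3% of the podocyte and 74.4% of the loop and distal tubule sum. The endothelial sum of the median well was 9.02 CPM for WT and 4.59 CPM for Renin null wells, the reverse of the pooled order. Without the wells under 1000 CPM of renin and smooth muscle genes, 3 of the 10 genes were higher (*Prkar1b*, *Prkacb*, *Pkia*) and *Akap12* lower, so that the call of *Prkar2b* was lost and the others kept. The share of *Prkar1a* in the regulatory transcripts of Renin null cells was 56.3% without those wells, against 56.4% with them.

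The wider pathway is read against the same shares, 39.0% higher and 35.2% lower over all genes. Of 25 further PKA and anchoring protein genes in the tables, 19 could be set against the median gene, 7 higher and 7 lower, with a median 0.41 above it. The highest log2 ratios were those of *Ezr*, which links membrane and actin (3.94), *Gskip*, which binds GSK3 and PKA (3.36), and *Cbfa2t3* (3.18), and the lowest those of *Akap17b* (-7.79), *Akap7* (-2.96) and *Akap11* (-2.21). A single WT well held 99.7% of the WT counts of *Akap17b*, 90.1% of those of *Akap11*, 97.2% of those of *Ezr* and 97.5% of those of *Gskip*. Without the highest well, *Akap17b* moved from -9.07 to -2.85 less the median gene, *Ezr* from 2.66 to 6.30 and *Gskip* from 2.08 to 5.78. Of 24 genes of cAMP production, breakdown and response, 8 were higher and 7 lower, with a median 0.24 above the median gene, so both lists lay near the background. They were led by the CREB coactivator *Crtc1* (7.83) and the phosphodiesterases *Pde3b* (6.35) and *Pde4a* (4.65) at the upper end, and by the adenylyl cyclases *Adcy6* (-2.28) and *Adcy4* (-1.91) and by *Creb1* (-1.15) at the lower. A single WT well held 99% of the WT counts of *Pde4a* and 91.1% of those of *Adcy4*, and without the highest well they stood at 7.23 and -1.09 less the median gene, from 3.36 and -3.20. The libraries also differed for named genes that were past the limit in both. Less the median gene, YFP1 and YFP2 gave -7.34 and -2.07 for *Adcy4*, 2.94 and 6.11 for *Pde3b*, and -2.75 and -5.74 for *Akap7*. Of 6 kinase substrates 3 were higher and 2 lower, with *Stmn1* at 3.52 (0.44 less the median gene with YFP2 alone, within the limit) and *Pln*, phospholamban, at -1.19. *Gnas*, the stimulatory G protein that activates adenylyl cyclase, had 518 CPM over WT and 448 CPM over Renin null wells, a log2 ratio of -1.50 less the median gene, past the limit for lower, but -0.96 with YFP2 alone and within it.

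Genes whose levels ran with the 10 across wells were sought among 3899 genes, by Spearman's rho within each genotype over 15 WT and 57 Renin null intact wells, averaged over both. The 3 highest for *Prkar1a* were *Pafah1b1* (0.53), *Pik3ca* (0.53) and *Tecr* (0.50). The WT wells, the smaller group, gave the higher values, with 0.60, 0.70 and 0.81 against 0.46, 0.36 and 0.18 in Renin null wells. For *Akap13* they included *Ssh1* (0.57) and *Zfp101* (0.50), against a median of 0.04 over all candidates. For *Prkaca* they were *Sco1*, *Slc44a2* and *Atp5g3* (0.49 to 0.52), for *Prkacb* *Rnf11*, *A130010J15Rik* and *Mau2* (0.51 to 0.58), and for *Akap12* *Flna*, *Atl3* and *Lnpep* (0.51 to 0.53). For each of the genes named here the rho in WT wells was the higher one. The wells share library and capture, and the values are a description. Between the members rho ran from -0.44 to 0.45 in WT and from -0.25 to 0.42 in Renin null wells. The highest in WT was that of *Prkar1a* with *Prkar2a* (0.45, against -0.02 in Renin null wells) and the highest in Renin null wells that of *Prkar1b* with *Akap1* (0.42, against -0.06 in WT). *Prkar1a* with *Akap13* gave 0.29 and 0.22, and *Prkaca* with *Prkacb* -0.27 and 0.19.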

How the data were processed

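The data cover 51 WT and 96 Renin null wells. The authors trimmed reads with Trimmomatic 0.39, checked them with FastQC 0.11.5, quantified them with Salmon 0.11.2 on GRCm38 (versions from the submitters' processing notes) and summed transcripts to genes with tximport (lengthScaledTPM). The deposited values are expected counts, scaled for transcript length and not for depth, and the authors used SCTransform for their own comparison.

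Expected counts were rounded to whole numbers, summed over the wells of a genotype and scaled to counts per 1000000 (CPM). Renin null over WT was taken as a log2 ratio and read against the median gene of those with at least 100 summed counts. Where a genotype had no count, 3 counts were taken in its place. Intervals at 95% are exact Poisson, exact conditional or Clopper-Pearson and cover counting error only, since PCR copies are not independent molecules. Lengths, coordinates and 31-base words came from GENCODE M21, matched by symbol, and promoters from RefSeq. Doublets were not called, since wells had been checked by microscope for a single cell. The members and lists, and the markers among them, were chosen with earlier results of these data known. The pathway genes named are the 3 with the highest and the 3 with the lowest log2 ratio of a list (1 and 1 for the substrates), among those with at least 10 CPM in the higher genotype, with *Gnas* added after its values were seen. Genes of like pattern are the 3 highest by rho for members with a count in most intact wells, among genes with a count in most intact wells of each genotype. Some genes that meet these rules or belong to the marker lists are not named here. The ratio step was tested on simulated data.

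The alternatives were the mean over wells of CPM, mean log2(CPM + 1), CPM without mitochondrial genes, TMM and DESeq2 factors, SCTransform, thinning to 62000 counts (2 WT and 13 Renin null wells left out), intact wells, each Renin null library alone, the highest well of each gene left out, near-identical wells counted once, other gene filters, other lengths and medians over wells. Python 3.11.15 (numpy 2.4.6, pandas 2.3.3, scipy 1.17.1, matplotlib 3.10.9) and R 4.3.3 (edgeR 4.0.16, DESeq2 1.42.0, Seurat 5.3.0, sctransform 0.4.2) were used.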

Additional observations from a re-analysis of the deposited data

Results flagged for a closer look

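The log2 ratio less the median gene took opposite signs in the libraries of Renin null cells for *Prkar1b*, *Akap1* and *Prkar1a*. It was 3.04 in YFP1 and -0.59 in YFP2 for *Prkar1b*, and 0.94 in YFP1 and -1.14 in YFP2 for *Akap1*. For *Prkar1a* it was -0.33 in YFP1 and 0.21 in YFP2, within the limit in both. Renin null well 1 held 80.9% of the YFP1 counts of *Prkar1b*, and Renin null well 11 held 61.1% of those of *Akap1*. Both libraries share the WT wells as reference, each is 1 sample, and the differences were not tested.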

How the results depend on the processing

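No paired analysis was possible because the wells are numbered in accession order only. Counts of genes and medians refer to the 10 genes against the median gene. The count of higher genes, 4, became 2 on mean log2(CPM + 1) (*Prkar1a* and *Akap13*, neither among the 4), 6 in YFP1, 5 with SCTransform, thinning, no gene filter or no wells of over 9000 genes, and 3 without the highest wells or without wells under 1000 CPM of renin and smooth muscle genes. The share of all genes called higher was 7.62% on mean log2(CPM + 1), against 39.0% in the main setting. It was 37.3% in YFP1 and ran from 32.6% (thinning) to 39.8% (no wells of over 9000 genes) in the others named. The count of lower genes, 1, became 0 on mean log2(CPM + 1), with the mean over wells of CPM, with SCTransform and after thinning. Of all genes, 3.15%, 35.4%, 33.3% and 30.5% were lower there, in that order. With the mean over wells of CPM and in YFP2 alone the count of higher genes stayed 4, with *Prkar2a* in place of *Prkar1b*. In YFP2 alone the lower gene was *Akap1*, with *Akap12* at -0.74. The members' median of 0.68 above all genes became 0.75 on mean log2(CPM + 1), 0.91 with SCTransform, 1.02 after thinning, 0.48 in intact wells, 1.62 in YFP1, 0.12 in YFP2, 0.64 without the highest well of each gene, 0.76 with near-identical wells counted once and 0.80 with no gene filter. In settings chosen after seeing the data, it became 0.96 without wells of over 9000 genes, 0.40 without wells under 1000 CPM of renin and smooth muscle genes and 0.18 in intact wells without each gene's highest well.

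The share of *Prkar1a* in regulatory transcripts, Renin null minus WT, was -24.7 percentage points. It became -16.1 with the mean over wells of CPM, -23.6 after thinning, -47.6 in YFP1, -19.8 without the highest wells, -23.0 with near-identical wells counted once, -12.4 with the longest transcript, -11.1 with the exon union, -10.6 with no length and -28.2 without wells of over 9000 genes. It turned to 0.747 in YFP2 and, as a difference of medians over wells, to 1.29 (at least 100 counts) and 0.456 (at least 10).

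The log2 ratio of regulatory to catalytic transcripts differed by 0.02, a difference with no stable sign. It became 0.42 in YFP1 and 0.59 and 1.04 as medians over wells with at least 100 and at least 10 counts. It was -0.41 with the mean over wells of CPM, -0.38 after thinning, -0.33 in YFP2, -1.09 without the highest wells, -0.057 with near-identical wells counted once, -0.38 with the longest transcript, -0.079 with the exon union, -0.82 with no length and -0.15 without wells of over 9000 genes. Among single genes, *Prkar1b* less the median gene turned to -0.072 on mean log2(CPM + 1) and -0.59 in YFP2, and *Prkar2b* to -0.12 after thinning and -0.50 in intact wells without its highest well. Genes within the limit also changed sign: *Prkar1a* in 3 of 17 alternatives (up to 2.10, on mean log2(CPM + 1)), *Prkaca* in 5 (up to 0.73), *Akap1* in 7 (up to 0.94) and *Akap13* in 2 (down to -0.51). The causes were not tested. The shallowest well held 3628 counts.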
